A study of Drosophila melanogaster with 18 samples.

Results

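Control cells of the study were S2 cells labelled LacZ, and their response to RNase H was read at every region of the table the authors deposited for them. These are all 6477 regions of that table, out of 17192 listed in the 3 tables of the series. No region of that table was left out here by a filter on low values. The list itself is taken to come from the LacZ libraries without RNase H, which favours regions of high level there. S2 is a Drosophila melanogaster line of embryonic origin. LacZ is a bacterial gene that flies lack, and the labels do not say how these cells were treated beyond that name. The response is set by 2 libraries labelled RNH+ against 2 labelled RNH-, read here as S9.6 pull-down of genomic DNA with and without RNase H. The other cells of the series, labelled hrp36 and hrp48, are knockdowns of the hnRNP genes Hrb87F and Hrb27C per the design text, and gave 2 libraries of each kind as well. All libraries came from the same line, for which the labels also give a primary culture as cell type. The hrp36 and hrp48 cells appear below as context, and 6 input libraries of 10% of the material were not used here.

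An R-loop forms when an RNA strand pairs with one strand of the DNA duplex and displaces the other. S9.6 is an antibody against such RNA-DNA hybrids, and RNase H degrades the RNA of a hybrid, so a hybrid's signal is lost after digestion. S9.6 also binds some double-stranded RNA, and repeats and mitochondrial DNA are known sources of hybrids in many cells. Normalised read counts give a region's signal relative to the rest of the libraries, so a change in the total amount of hybrid is not measured here.

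Positions are on the dm3 build as the authors' files give them, where scaffolds ending in Het hold mapped heterochromatin and U and Uextra collect sequence that was not placed on a chromosome. The arms 2L, 2R, 3L, 3R and X held 3441 of the regions and Uextra 2028. A further 451 were on Het scaffolds, 349 on U, 191 in the pericentromeric ends of the arms, 16 on chromosome 4 and 1 was mitochondrial. The tables pair no region with a gene, so none is named. Levels are the authors' means per group of log2 normalised read counts, given without an SD, and values per library were not used here. Depth per library is therefore unknown. The error of each region is the standard error (SE) of the shrunken log2 fold change in the authors' deposited table. Replicates are 2 libraries per group, whose origin from separate cultures is not given, so p-values measure the spread between libraries, which may be technical.

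After RNase H most listed regions of the LacZ cells passed no test, and a minority moved in both directions. The authors' deposited table has 634 regions that fell with RNH+ and 316 that rose, each with an adjusted p under 0.05. That is 9.79% and 4.88% of the table, or 14.7% called either way. A call here and below is an adjusted p under 0.05. The authors' own column of calls follows a limit of 0.1, which gives 895 falls and 459 rises. The median change of the group means, RNH+ minus RNH-, was -0.085 over all regions, with quartiles of -0.52 and 0.31. The median levels were 7.39 with RNH+ and 7.38 with RNH-. The typical SE of a region was 0.34. The smallest log2 fold change among the called regions of the authors' deposited table was 0.63 in size.

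Large changes at the listed regions were mostly falls. The group mean dropped by more than 1 log2 unit at 616 regions and gained more than 1 at 207. Of these, 495 and 170 were called. Drops of more than 2 log2 units were seen at 46 regions and gains of more than 2 at 16, and every one was called in the authors' deposited table. Regions that fell had a median level of 6.20 with RNH+ against 7.41 with RNH-. Regions that rose had a median of 8.23 with RNH+ against 7.15 with RNH-. After centring on the median fold change of the arms (-0.087), 57.2% of calls were falls, against 69.7% in the same test without centring and 66.7% of the authors' calls. The excess of falls over rises thus depended in part on the scale.

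**Figure D1:**
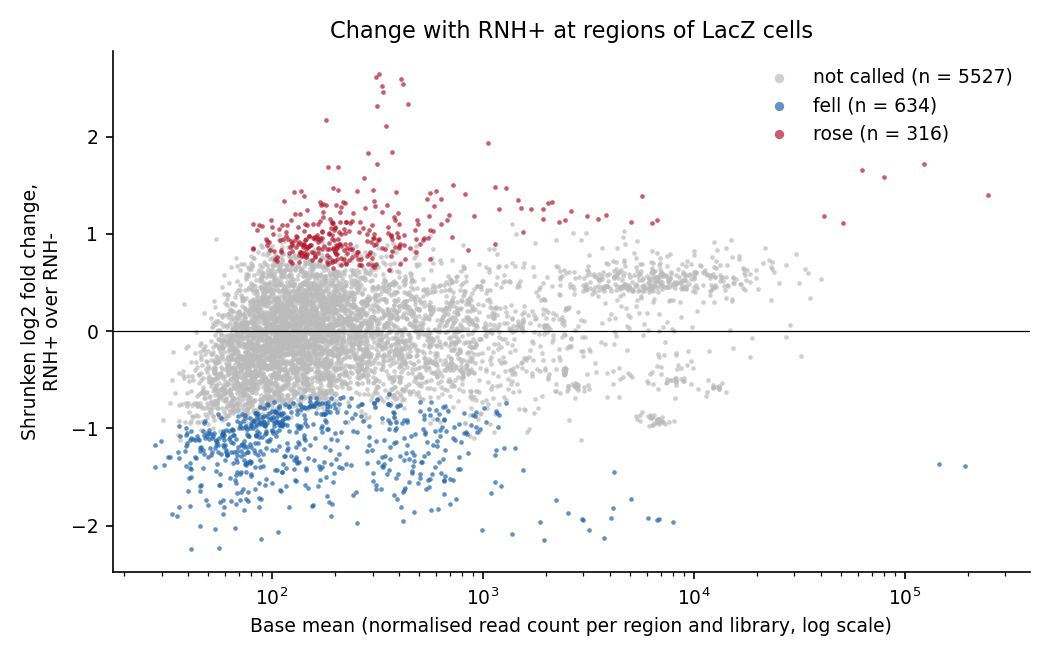
Shrunken log2 fold change of RNH+ over RNH- in LacZ cells (y) against the base mean, the normalised read count per region and library (x, log scale), with 1 point per region. Blue points are the 634 falls and red points the 316 rises, and no call lies closer to 0 than 0.63.

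The 5 arms had similar medians and shares of calls. Their medians lay between -0.13 on 2L and -0.091 on 3L, and the share of regions that fell ran from 7.04% on X to 9.66% on 2R, near the 9.79% of the whole table. Rises took 3.18% of regions on 3L at the low end and 4.36% on 2R at the high end. Uextra and U had more calls than the arms, with 12.8% and 12.6% of regions falling and 5.92% and 6.59% rising. The spread on Uextra was wider, with quartiles of -0.55 and 0.48, against -0.52 and 0.24 on the arms. Het scaffolds were the part where rises outnumbered falls, with 32 against 24 of 451 regions and a median of 0.0085. In the pericentromeric ends, rises and falls were 13 each of 191. On chromosome 4, the small and mostly heterochromatic autosome, 3 regions fell and 1 rose of 16. These shares were not tested against each other, since regions are not replicates.

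Among the Het scaffolds the direction was mixed. On 3RHet 7 regions fell and 11 rose of 136, on 3LHet 7 fell and 9 rose of 130, and on 2RHet 10 fell and 9 rose of 154. None of the 7 listed regions of YHet was called, and their median change was 0.08 in LacZ cells. The 18 regions of 2LHet had 2 rises and 0 falls, and the 6 of XHet had 1 rise and 0 falls in the authors' deposited table. Those scaffolds hold too few regions for a share to be read.

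**Figure D2:**
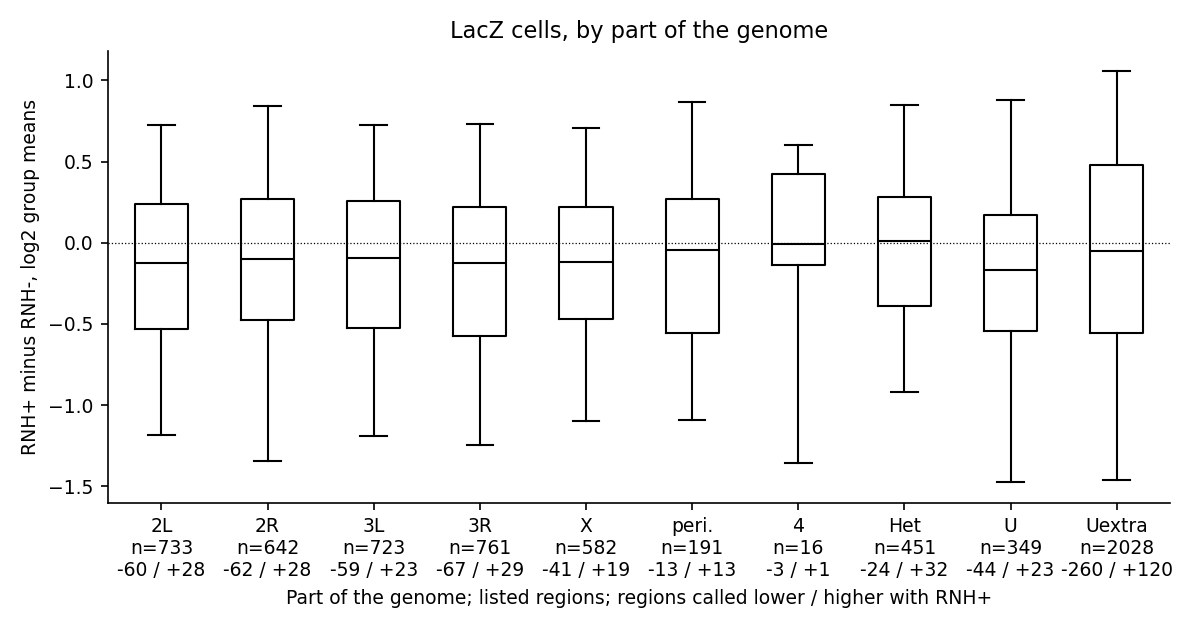
RNH+ minus RNH- in LacZ cells (log2 group means) by part of the genome. Boxes show median and quartiles over regions, whiskers the 5th and 95th percentiles, and the numbers below give listed regions and those called lower and higher. The arm medians lie just below 0, Het at 0.0085, and the box of Uextra is the widest of the large parts.

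Mitochondrial DNA, read as 1 region at M 50 to 15005, lost signal after RNase H. Its level was 16.39 with RNH+ against 17.95 with RNH-, the highest RNH- level of LacZ cells in the table. The authors' deposited table gives it a 2.62-fold drop (log2 -1.39, SE 0.35, adjusted p 0.000731). A region of like length on the unplaced scaffold U, 5288444 to 5303493, behaved in near parallel. Its levels were 16.00 with RNH+ and 17.55 with RNH-, with a log2 fold change of -1.36 (SE 0.36) and an adjusted p of 0.00118 in the authors' deposited table. Both also moved alike in the other cells, by -1.50 and -1.42 in hrp36 and by -0.89 and -0.85 in hrp48 cells. Whether reads are shared between these places was not tested.

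Among the other deepest and longest regions of the table, some moved the other way. The region of highest base mean was 2RHet 5 to 355, with a level of 18.36 with RNH+ against 15.74 with RNH-. The authors' deposited table gives a shrunken rise of 1.39 (SE 0.62, adjusted p 0.0320), a call that was lost with a Benjamini-Hochberg adjustment over the listed p-values (adjusted p 0.0833). Uextra 9215410 to 9215774 had levels of 17.26 with RNH+ and 15.16 with RNH- and, per the authors' deposited table, rose by 1.72 with SE 0.49 (adjusted p 0.00186). The 9080-base region U 2190491 to 2199571 stood at 12.84 with RNH+ and 11.16 with RNH-. Per the authors' deposited table it rose by 1.39 with SE 0.48 (adjusted p 0.0108). The long arm region 2R 6835636 to 6843077, at 13.71 with RNH+ and 14.09 with RNH-, was not called in the authors' deposited table, with -0.27, SE 0.47 and an adjusted p of 0.706.

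Single regions carried a visible part of the summed signal. Back-transformed group means of the listed regions summed to 1.16 times as much with RNH+ as with RNH-, over the same 6477 regions and the same length. Uextra supplied 64.4% of this sum with RNH+ and 52.9% with RNH-, the arms 17.6% and 25.1%, and mitochondrial DNA 1.31% and 4.49%. Het scaffolds as a whole had a ratio of 1.69, RNH+ over RNH-, and 0.934 without the region at 2RHet 5 to 355, so 1 region decided that direction. For U the ratio was 0.727 with the 15049-base region and 0.993 without it. These are sums of group means on a normalised scale, and total reads are not known.

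Deep regions split by place. On the arms, 71 regions had a base mean over 5000, a limit set with the values known. Of these, 69 had a lower group mean with RNH+ in LacZ cells, with a median change of -0.72 (quartiles -1.05 and -0.67). They were long, with a median of 5155 bases, and had median levels of 12.14 with RNH+ and 12.93 with RNH-. On Uextra 271 regions lay above it as well. There 261 had a higher group mean with RNH+, with a median change of 0.58 (quartiles 0.47 and 0.68), median levels of 12.99 with RNH+ and 12.49 with RNH-, and a median length of 411 bases.

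Few of these deep regions reached a call. On the arms 0 of 71 were called in the authors' deposited DESeq2 table, where 25 had an unadjusted p under 0.05 and the smallest adjusted p was 0.0506. On Uextra 5 fell and 8 rose, a called share of 4.80%. Over all regions of each part, 12.1% were called on the arms and 18.7% on Uextra. The median SE of the deep regions was 0.45 on the arms and 0.48 on Uextra, against 0.34 over the whole table. The directions recurred in the knockdown cells, with all 71 arm regions lower with RNH+ in both hrp36 and hrp48 cells. Of the 271 Uextra regions, 255 were higher in hrp36 and 265 in hrp48 cells. Whether regions of each set are copies of the same sequence was not tested, so their number is not a number of independent observations.

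**Figure D3:**
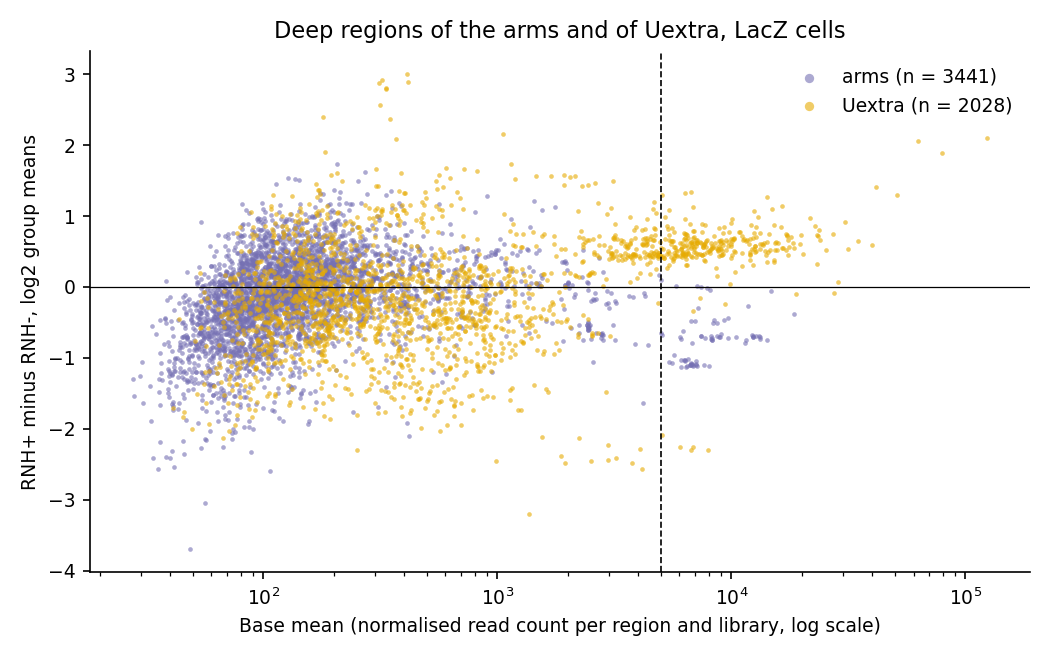
RNH+ minus RNH- in LacZ cells (log2 group means, y) against base mean (x, log scale) for the 3441 arm and 2028 Uextra regions, with a dashed line at a base mean of 5000. Right of the line, 69 of 71 arm regions lie below 0 and 261 of 271 Uextra regions above it.

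The direction of the calls went with base mean. The base mean is taken to pool RNH+ and RNH- levels of all cell groups, so it contains the response it is set against. How much of the relation comes with this overlap was not tested. The table was divided into 4 bins of equal size by base mean, with borders at 99.6, 167.0 and 417.9. In the lowest bin 258 regions fell and 12 rose of 1619, and the median change was -0.39. In the next bins 124 fell and 84 rose, then 121 fell and 160 rose. In the deepest bin 131 fell and 60 rose of 1620, with a median of 0.058. The turn was sharper on the arms, where 190 fell and 10 rose of 1247 regions in the lowest bin and 20 fell and 67 rose of 775 in the next to deepest. Of the 289 arm falls, 190 thus lay in the lowest bin. Without that bin falls were 45.8% of the arm calls, against 69.5% with it, and the median change of all regions was 0.016, so both directions turned.

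The lower edge of the RNH- levels differed from that of RNH+. The lowest RNH- mean of LacZ cells in the table was 5.37, while the lowest RNH+ mean was 2.71. At the same regions RNH- means went down to 2.44 in hrp36 and 2.11 in hrp48 cells. Region names carry the LacZ group and the ending Un, so the regions are taken to have been found in the LacZ RNH- libraries, which favours regions of high RNH- level there. The same arm regions of the lowest bin had a median change of -0.39 in LacZ cells, 0.023 in hrp36 and 0.33 in hrp48 cells. How much of the falls at shallow regions comes with this choice was not tested.

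**Figure D4:**
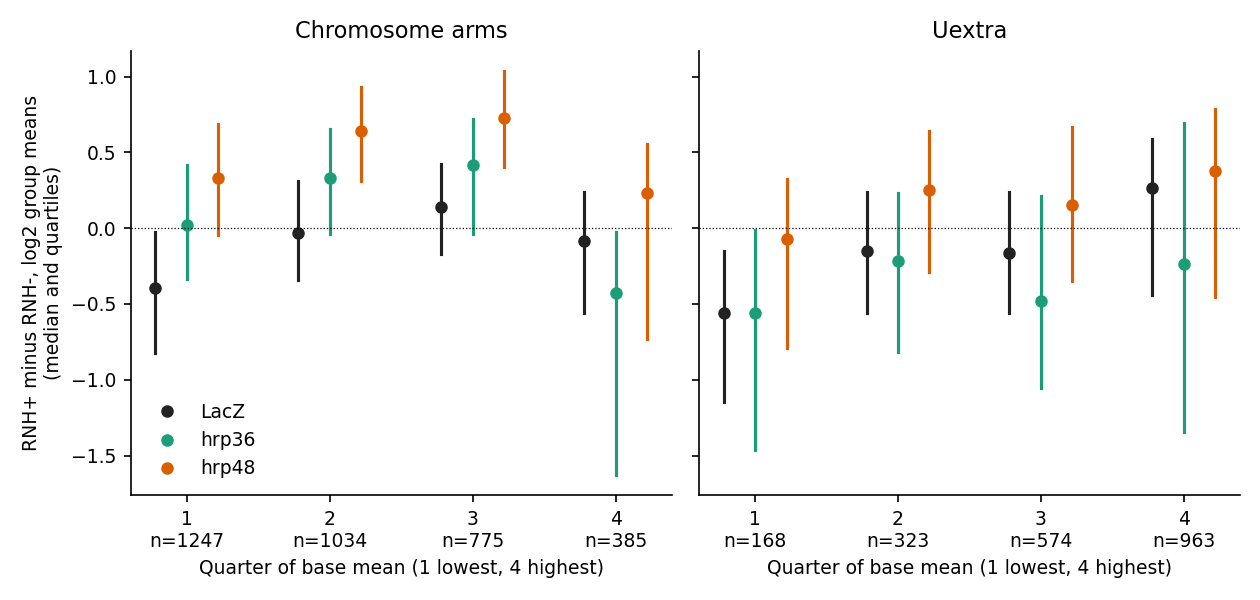
RNH+ minus RNH- (log2 group means) at the regions of the LacZ table, by bin of base mean, for LacZ, hrp36 and hrp48 cells. Points are medians and bars quartiles over regions. LacZ lies lowest of the 3 in the shallowest bin of the arms, at -0.39, and hrp36 in the deepest, at -0.43.

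Over the whole table short regions were called more often than long ones. Of regions under 300 bases 16.5% were called, of those from 300 to under 500 bases 16.6%, from 500 to under 1000 bases 14.4%, and from 1000 to under 2000 bases 6.39%. Regions of 2000 bases and over had 4.61% called, 8 lower and 2 higher of 217. Their median change was nevertheless the lowest, at -0.43, with a median SE of 0.42 and a median base mean of 4877. On the arms the 144 longest regions had a median change of -0.41 in LacZ cells, against -1.28 in hrp36 and -0.43 in hrp48 cells. On Uextra the shortest regions leaned upwards, with a median of 0.20 for 359 regions under 300 bases. Those from 500 to under 1000 bases leaned downwards, with -0.22 for 797. Called shares there were 14.8% under 300 bases, 21.4% from 300 to under 500 and 18.7% from 500 to under 1000. Across all 6477 regions, Spearman's rho between length and change was 0.00024, and between base mean and change 0.27. Length and base mean themselves went together (rho 0.61). These are descriptions across regions, which share libraries and may share repeats.

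Named regions of the arms were taken in each arm as the falls and rises of smallest adjusted p among regions in the upper 2 bins of base mean. On 2R both leading falls were large. The 2753-base region 2R 10509264 to 10512017 had levels of 7.44 with RNH+ and 9.54 with RNH-, a 3.86-fold drop after shrinkage (adjusted p 4.54e-07 in the authors' deposited table). The 1706-base region 2R 4983162 to 4984868 had 7.57 with RNH+ and 9.48 with RNH-, a 3.49-fold drop (adjusted p 5.51e-07 in the authors' deposited table). On 3L, 826915 to 827969 stood at 6.95 with RNH+ and 8.71 with RNH-, and the authors' deposited table gives -1.68 with SE 0.29 (adjusted p 1.72e-06). On 3R, 3965158 to 3966678 stood at 7.31 with RNH+ and 8.99 with RNH-, and the same deposited table of the authors gives -1.58 with SE 0.29 (adjusted p 4.29e-06). All 4 are over 1000 bases long, and all 4 were lower with RNH+ in hrp36 cells (by 1.19 to 1.78) and in hrp48 cells (by 0.61 to 1.38).

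The leading falls of 2L and X were smaller. On 2L, 4066112 to 4066977 had 8.22 with RNH+ and 9.03 with RNH-, and 21735231 to 21737661 had 9.07 with RNH+ and 9.88 with RNH-. The authors' deposited table gives them adjusted p-values of 0.0203 and 0.0314. On X, 21574992 to 21575678 had 8.73 with RNH+ and 9.70 with RNH-, and 14696934 to 14698254 had 7.51 with RNH+ and 8.42 with RNH-, with an adjusted p of 0.0162 and 0.0183 per the authors' deposited table. With a Benjamini-Hochberg adjustment over the listed p-values, 3 of these 4 calls were lost, with adjusted p from 0.0546 to 0.0825. The call at X 21574992 held there at 0.0490, and was lost in a Wald test from the SE at 0.0860 once centred, against 0.0491 uncentred, with a fold change of -0.82 after centring. The region 3L 12950934 to 12955332, with a base mean of 4171, had levels of 10.75 with RNH+ and 12.39 with RNH-. The authors' deposited table gives it -1.45 with SE 0.40 (adjusted p 0.00204). At 3R 10957829 to 10958380 the fall of the authors' deposited table was 1.69-fold (adjusted p 0.0171), and this call was lost with the Benjamini-Hochberg adjustment over the listed p-values (adjusted p 0.0513).

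Arm rises had a median length of 411 bases and a median base mean of 182.5, and arm falls 373 bases and 81.0. The largest named one, 3R 10871984 to 10872238, had levels of 8.27 with RNH+ and 6.54 with RNH- and, per the authors' deposited table, a rise of 1.68 with SE 0.36 (adjusted p 0.000133). On 2L, 516273 to 516777 stood at 8.79 with RNH+ and 7.29 with RNH- and, per the authors' deposited table, rose by 1.44 with SE 0.31 (adjusted p 0.000162). Another 2L region, 490619 to 490829, stood at 8.32 with RNH+ and 6.95 with RNH-. The first rises of the other arms were 2R 5454424 to 5454829 at 1.0 (SE 0.25), 3L 5180513 to 5181058 at 1.29 (SE 0.31) and X 16456363 to 16456881 at 1.17 (SE 0.28), all in the authors' deposited table. The 10 named arm rises had lengths from 210 to 630 bases and base means from 175.1 to 350.7. Each was also higher with RNH+ in hrp36 and hrp48 cells.

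On the Het scaffolds the largest shrunken fold change was a rise. The region XHet 194832 to 195308 had levels of 9.6 with RNH+ and 7.03 with RNH-, and the authors' deposited table gives a rise of 2.33 with SE 0.36 (adjusted p 5.87e-08). At 3RHet 2136458 to 2136729 the levels were 8.85 with RNH+ and 6.69 with RNH-, a rise of 1.83 (SE 0.42) in the authors' deposited table. The leading falls were 3RHet 949841 to 950644, with 8.67 with RNH+ and 10.50 with RNH- and a log2 fold change of -1.66, and 2RHet 484343 to 485207, with 6.72 with RNH+ and 8.21 with RNH- and -1.40, in the authors' deposited table. Both falls were larger than any named fall of the pericentromeric ends, where the authors' deposited table gives -0.74 (SE 0.27) for 3L 24334501 to 24335375 and -0.71 (SE 0.28) for 3R 234206 to 234999. The rises there, 2L 22331267 to 22331742 and 2R 700387 to 701017, had 8.22 and 8.74 with RNH+ against 7.10 and 7.61 with RNH-. On chromosome 4 the region 1242232 to 1243207 had 7.22 with RNH+ and 8.14 with RNH- (adjusted p 0.0174 in the authors' deposited table). The calls of this region and of both pericentromeric falls were lost with a Benjamini-Hochberg adjustment over the listed p-values, with adjusted p from 0.0522 to 0.0845.

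On the unplaced scaffolds the leading falls and rises by adjusted p were both large. The region U 9820204 to 9820603 had levels of 6.16 with RNH+ and 8.16 with RNH- and, per the authors' deposited table, fell by 1.90 with SE 0.29 (adjusted p 3.40e-08). Another, 9794359 to 9794985, had 6.13 with RNH+ and 8.0 with RNH-. On Uextra, 5266457 to 5266786 stood at 6.25 with RNH+ and 8.12 with RNH-, and 22548183 to 22548796 at 7.41 with RNH+ and 9.40 with RNH-, and the authors' deposited table gives adjusted p-values of 1.29e-07 and 4.17e-07. The rise of smallest adjusted p, Uextra 24787444 to 24787704, had levels of 8.97 with RNH+ and 6.09 with RNH- (rise 6.11-fold after shrinkage, adjusted p 5.23e-09 in the authors' deposited table). LacZ cells changed there by 2.88, hrp36 cells by 2.34 and hrp48 cells by 2.46. The region Uextra 27151909 to 27152205 was close to it in all cells, with 2.92, 2.39 and 2.35 in that order. Rises on U, at 9487622 to 9488081 and 9991568 to 9992102, had 8.77 and 10.74 with RNH+ against 6.81 and 9.06 with RNH-.

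Calls stood mostly alone along the mapped sequence. Joining consecutive listed regions called the same way within 20 kb, outside U, Uextra and mitochondrial DNA, gave 435 single calls, 24 pairs, 5 runs of 3 and 1 run of 4. The run of 4 lay on 3R at 27901223 to 27904612 and rose, with log2 fold changes of 0.85 to 0.88 and base means of 201.0 to 212.2 per the authors' deposited table. On 2RHet a run of 3 from 1894523 to 1898540 fell by 0.95 to 1.38, and another from 2256593 to 2259172 rose by 0.80 to 0.89. Changes of neighbouring regions less than 1000 bases apart correlated with r = 0.34 over 541 pairs on the arms and r = 0.31 over 207 pairs on Uextra. From 1000 to 5000 bases apart r was 0.054 and 0.14. Neighbours share libraries and may be pieces of one peak, so this describes the scale of the signal only.

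A stretch of 2L with closely spaced regions held no call. Between 21417320 and 21539258 the table lists 42 regions, and 0 were called in the authors' deposited DESeq2 table, with a smallest adjusted p of 0.304. Changes of the 42 regions ran from -0.48 to 0.23 around a median of -0.20 in LacZ cells. The median was -0.68 in hrp36 and 0.28 in hrp48 cells. The limits of the stretch were chosen after its values were seen.

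The same regions moved the same way in the knockdown cells more often than regions at large. Of the 634 regions that fell in LacZ cells, 584 (92.1%) had a lower group mean with RNH+ in hrp36 cells and 514 (81.1%) in hrp48 cells. Of all regions, 47.6% and 27.9% were lower there. All 316 rises were higher with RNH+ in hrp48 cells and 308 in hrp36 cells, against 72.1% and 52.4% of the whole table. Spearman's rho of the change was 0.70 with hrp36 and 0.73 with hrp48 cells over the 6477 regions, as a description. The cell groups share no library by the labels, but their columns stand in 1 normalised table.

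The knockdown cells differed between places in the size of these falls. At the 289 arm falls LacZ cells had a median change of -1.24, hrp36 cells of -0.57 and hrp48 cells of -0.27. At the 260 Uextra falls the medians were -1.33 for LacZ, -1.80 for hrp36 and -1.07 for hrp48 cells. The LacZ values come from the calls themselves, which favours a large LacZ change, so the order of the 3 cell groups is not a result. At the 2 regions 2L 20916754 to 20917137 and X 20135126 to 20135359, chosen after their values were seen, LacZ cells fell while both knockdowns were higher by over 0.5. They were 2 of the 634 falls, with base means of 85.0 and 57.4 in the lowest bin. The authors' deposited table gives them adjusted p-values of 0.0124 and 0.0449. Neither overlapped a region of the other tables, so the difference between cell groups was not tested there. At the 2L region LacZ cells changed by -1.09, hrp36 cells by 0.83 and hrp48 cells by 0.56. At the X region LacZ cells changed by -1.10, hrp36 cells by 0.54 and hrp48 cells by 0.58. At the rises the medians were 1.03 for LacZ, 1.12 for hrp36 and 1.37 for hrp48 cells. In the same order they were 0.95, 0.97 and 1.25 on the arms and 1.18, 1.18 and 1.44 on Uextra. Rises were also picked by the LacZ calls, so the same limit applies.

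**Figure D5:**
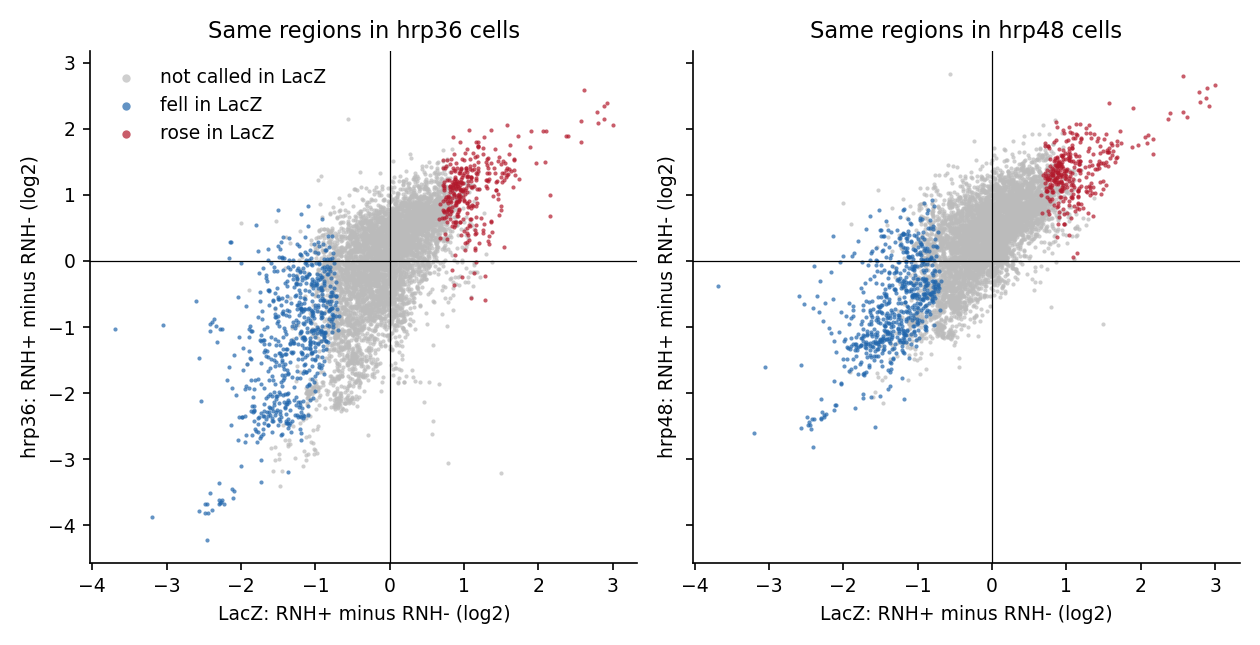
RNH+ minus RNH- (log2 group means) in hrp36 cells (left) and hrp48 cells (right) against that in LacZ cells, for the 6477 regions of the LacZ table. Blue and red points are the regions called lower and higher in LacZ cells, and all 316 red points lie above 0 in hrp48 cells.

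Regions listed by all 3 tables had more falls than regions of the LacZ table alone. A LacZ region was counted as shared when a region of the other table overlapped it by at least 1 base. There were 2128 regions shared with both tables, of which 308 (14.5%) fell and 81 (3.81%) rose, and 2980 of the LacZ table only, of which 216 (7.25%) fell and 158 (5.30%) rose. The median base mean was 506.1 at shared regions and 105.1 at LacZ-only ones. On Uextra 229 of 1304 shared regions fell, against 6 of 223 listed for LacZ only, where 26 rose. On the arms it ran the other way, with 22 falls of 450 shared regions and 193 of 2319 LacZ-only ones. A further 381 Uextra regions shared with hrp48 but not hrp36 had a median change of 0.49 and a median base mean of 3775.

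LacZ cells were also read at regions that were found in the other cells and that no LacZ region overlaps. At 63 such arm regions of the hrp36 table the median LacZ change was 0.16 (quartiles -0.06 and 0.28), against -0.11 at the arm regions of the LacZ table. At 73 such arm regions of the hrp48 table it was -0.026 (quartiles -0.36 and 0.32). On Uextra, 699 regions of the hrp36 table without a LacZ region had a median of -0.48 and spread widely, with 254 below -1 and 156 above 1. At the Uextra regions of the LacZ table the median was -0.051. Not overlapping a LacZ region may favour a low LacZ RNH- level and so a higher change, which was not tested. The same limit applies to the 4008 Uextra regions of the hrp48 table without a LacZ region, where the LacZ median was 1.39. A second mitochondrial region, listed for hrp36 and hrp48 but not LacZ cells, changed by -2.31 in LacZ cells over the hrp36 borders and by -2.45 over the hrp48 borders.

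Differences in response between cell groups were tested where regions of 2 tables were each other's best overlap, with a Wald test from both SEs and Benjamini-Hochberg adjustment. Against hrp36 cells 2 of 2165 matched regions differed (0.0924%), and 337 had an unadjusted p under 0.05. Both lay on Uextra and had a higher fold change in LacZ cells. Against hrp48 cells 0 of 3187 differed (0.00%) by this Wald test, and 119 had an unadjusted p under 0.05. The median difference was 0.46 against hrp36 and -0.18 against hrp48, LacZ minus knockdown. The median SE of a difference was 0.50 in both comparisons, so the absence of a call does not show that responses were equal. Matched regions were 33.4% of the LacZ table for hrp36 and 49.2% for hrp48, and regions without a match were not tested. Among these were 804 hrp36 and 4485 hrp48 regions that no LacZ region overlaps. Median changes there were -0.26 in LacZ and -0.93 in hrp36 cells, and 1.39 in LacZ and -1.15 in hrp48 cells. The choice of these regions in the knockdown cells may favour that contrast, which was not tested.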

How the data were processed

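Genomic DNA of S2 cells was sonicated and pulled down with S9.6, per the labels' protocols. Per the submitters' processing notes, dm3, Bowtie2 2.2.2, MACS 1.4.2 and DESeq2 were used, with no role, order, pooling of libraries for peaks or treatment of reads with several places stated. The authors deposited log2 group means (Un read as RNH-, Tr as RNH+), a base mean, which is a normalised signal per region, a shrunken log2 fold change with its SE, a Wald score with a column of calls, p-values and adjusted p-values. The mean of the back-transformed group means, taken as log2(count + 1), exceeded the base mean at 0 regions. Adjusted p-values differed from a Benjamini-Hochberg adjustment over the listed p-values by up to 0.138, by a step the sources do not give.

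Computed here were group mean differences and summaries by part, length (end minus start) and base mean. A Wald test of differences between tables was also computed, and was tried on simulated data with the deposited SEs. There it found 14% of planted differences of 1 log2 unit in each comparison. Of planted differences of 2 log2 units it found 68% against hrp36 and 79% against hrp48. Pericentromeric ends start past 22 Mb on 2L and X and past 23 Mb on 3L, and cover the first 1.3 Mb of 2R and the first 0.4 Mb of 3R (round limits set from general knowledge). Named regions are, in each part, the 2 falls and 2 rises of smallest adjusted p among the upper 2 of 4 base mean bins, the 3 deepest and the 3 longest regions outside mitochondrial DNA, the mitochondrial region, the 3 longest runs of calls (ties of 3 broken by name) and the regions that differed between tables. Members, bins and rules were chosen with earlier results of these data known. No dm3 sequence or gene annotation was used, and the hrp36 and hrp48 gene symbols were matched in a RefSeq gene table. Alternatives covered thresholds, adjustment, a base mean filter, centring, unplaced scaffolds and overlap. Tools were Matplotlib 3.10.9 for plots, and SciPy 1.17.1, pandas 2.3.3 and NumPy 2.4.6 under Python 3.11.15.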

Additional observations from a re-analysis of the deposited data

Results flagged for a closer look

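At 2 matched regions the response of LacZ cells differed from that of hrp36 cells in the Wald test. At Uextra 24808199 to 24808430 the log2 fold change was 0.60 (SE 0.43) in LacZ cells and -2.15 (SE 0.43) in hrp36 cells, in the authors' deposited tables. The difference was 2.75 (SE 0.61, Benjamini-Hochberg adjusted p 0.0143). Levels were 9.01 with RNH+ and 8.43 with RNH- in LacZ cells, and 7.45 with RNH+ and 9.87 with RNH- in hrp36 cells, each over the borders of its own table. At Uextra 4796058 to 4796326 the fold changes were -0.10 (SE 0.33) in LacZ and -2.33 (SE 0.42) in hrp36 cells in the authors' deposited tables, a difference of 2.23 (SE 0.53, adjusted p 0.0282 in the same Wald test). The hrp36 region there runs from 4795539 to 4796422 and is wider than the LacZ one, so the fold changes cover different lengths. Neither difference was called with each table centred on its arm median.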

How the results depend on the processing

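The counts of falls and rises moved with most choices, while falls stayed the more numerous over the whole table. Against 634 falls and 316 rises, there were 333 and 132 at a threshold of 0.01, 421 and 141 with a log2 fold change of at least 1, and 399 and 174 with a Benjamini-Hochberg adjustment over the listed p-values. A Wald test from the SE gave 398 and 173, and 325 falls with 243 rises once centred on the arm median. Leaving out U and Uextra left 330 and 173, leaving out the lowest base mean bin 376 and 304, and keeping only regions with an overlap in both other lists left 308 and 81, where the last choice and the uncentred Wald test were added after seeing the data. Falls were 69.5% of the arm calls, against 82.0% with the fold limit, 45.8% without the lowest bin and 55.3% in the centred Wald test, where the uncentred one gave 69.2%. On Het scaffolds the share of 42.9% became 24.2% in the centred Wald test and 46.4% in the uncentred one. On Uextra 68.4% became 76.4% at 0.01, 72.9% with the Benjamini-Hochberg adjustment, 73.2% with the uncentred Wald test, 63.4% without the lowest bin and 63.1% centred. The called share was 7.49% at 0.01 and 12% with the fold limit for regions under 300 bases, and 2.30% at 0.01 for those of 2000 bases and over. In the lowest base mean bin falls were 99.2% of calls at 0.01 and 97.6% with the fold limit, against 95.6%. Differences from hrp36 cells numbered 1 with a reciprocal overlap of 50% and 0 with each table centred on its arm median. The causes were not tested. Of 43 named regions, 10 lost their call at 0.01, 8 with the Benjamini-Hochberg adjustment, 8 with the uncentred Wald test and 9 with the centred one.

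No paired analysis was possible because the columns are group means that carry no replicate number, and leaving out a replicate was not run for the same reason. The depth of each library is unknown, so the SE of each region is the only error available. Regions come from a list that favours a high RNH- level in LacZ cells, and the input libraries were not used to correct for that.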
